A study of Mus musculus with 6 samples.

Results

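The genes of the platelet-derived growth factor (PDGF) system were examined in open-chromatin data from mouse lung fibroblasts grown on surfaces of different stiffness. They comprise the receptor genes Pdgfra and Pdgfrb and the ligand genes Pdgfa, Pdgfb, Pdgfc and Pdgfd. A region belonged to the set where the authors' annotation gave 1 of these 6 genes as its nearest gene and placed it within 100 kb of that gene's transcription start site. This gave 28 of the 64217 regions in the table that compares plastic with 32 kPa silicone, 6 at receptor genes and 22 at ligand genes. Neither of the tables that compare a stiffer surface with 0.2 kPa silicone listed such a region, among 2121 regions listed for 32 kPa and 2114 for plastic.

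PDGFs are secreted dimers that act as mitogens and chemoattractants for mesenchymal cells. PDGF-A and PDGF-B are processed inside the producing cell, whereas PDGF-C and PDGF-D are secreted in a latent form and activated outside it by proteases. PDGFR-alpha binds the A, B and C chains, PDGFR-beta binds mainly the B and D chains, and both are receptor tyrosine kinases. In the developing lung, epithelial PDGF-A acts on PDGFR-alpha-positive mesenchyme that forms alveolar myofibroblasts, and endothelial PDGF-B recruits PDGFR-beta-positive pericytes.

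Accessibility was measured by Omni-ATAC-seq, an assay that reads where a transposase can insert into open DNA, in GFP-positive lung fibroblasts sorted from Col1a1-GFP transgenic mice. All libraries carried that transgene, in which GFP marks cells that use the collagen I alpha 1 promoter, and all cells were grown on collagen I in 10% serum for 8 days. The cultures were tissue-culture plastic, 32 kPa PDMS (a silicone) and 0.2 kPa PDMS, with 2 libraries of 50000 cells each. The sources used here do not say whether a culture's libraries derive from different mice, so the authors' p-values may measure technical spread only. Levels below are the authors' means over the libraries of a culture, in log2 normalised reads per region. A fold is a difference of those means, and no spread between libraries or depth is known. In such bulk libraries, fewer cells with an open region and less opening in each cell cannot be told apart. Among markers of the sorted cells, 9 of 10 lung fibroblast genes had a promoter region, with mean levels from 3.42 to 6.4. A promoter region was also present for 2 of 8 pericyte and smooth muscle genes (levels 4.60 to 5.35), 2 of 6 endothelial genes (2.24 to 3.45), 1 of 6 epithelial genes (3.97), 1 of 4 mesothelial genes (4.15) and 0 of 7 leukocyte and platelet genes. Counting any region within 100 kb, the strongest reached 6.57 for lung fibroblast, 5.35 for pericyte and smooth muscle and 6.92 for endothelial genes. It reached 5.88 for epithelial, 5.99 for mesothelial and 6.74 for leukocyte and platelet genes, of which 6 had a region. These counts and levels were not compared with those of genes in general. The part of such other cell types in the values below was not tested.

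Promoter DNA is shown for the ligand genes, because their start sites differed in whether an accessible region covered them. The sequences are from RefSeq (GRCm38.p6, the assembly also called mm10), 5′ to 3′ on the gene's strand, ending at or before the annotated start. Of the 6 genes, 4 had a window in that table. Capitals mark matches, on either strand, to GGGCGG (the GC box bound by SP and KLF factors), TATAAA (the TATA box), GGAATG (the TEAD core) or the CArG box of serum response factor.
Pdgfa: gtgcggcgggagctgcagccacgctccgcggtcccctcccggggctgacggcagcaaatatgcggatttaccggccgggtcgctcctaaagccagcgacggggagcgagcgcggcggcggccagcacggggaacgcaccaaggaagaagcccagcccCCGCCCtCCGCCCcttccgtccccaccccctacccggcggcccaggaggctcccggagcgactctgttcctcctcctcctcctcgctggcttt
Pdgfc: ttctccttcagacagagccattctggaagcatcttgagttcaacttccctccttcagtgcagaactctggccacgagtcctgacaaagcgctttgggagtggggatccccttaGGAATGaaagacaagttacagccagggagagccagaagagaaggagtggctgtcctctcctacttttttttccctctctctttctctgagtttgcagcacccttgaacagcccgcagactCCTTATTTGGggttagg
Pdgfd: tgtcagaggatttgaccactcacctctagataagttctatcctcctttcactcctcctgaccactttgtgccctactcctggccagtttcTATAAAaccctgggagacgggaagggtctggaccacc
The Pdgfa stretch is chr5:138994945-138995194 on the minus strand, and its last 169 bases lie inside the Pdgfa promoter region. It holds 2 GC boxes, 86 and 93 bases before the start at 138994944, and 72.4% of its bases are G or C. The Pdgfc stretch is chr3:81036166-81036415 on the plus strand, has a G and C content of 50.8%, and lies 144 bases from the nearest accessible region, in the 5′ UTR. It holds a TEAD core 137 bases and a CArG box 17 bases before the start. The Pdgfd stretch is chr9:6168236-6168362 on the plus strand, and it ends before the first start of the RefSeq gene, at 6168363, which lies outside the accessible promoter region. Its TATAAA lies 37 bases before that start, and 160 bases before a second annotated start, at 6168486, which lies inside the region. Over 32851 RefSeq promoter windows of 250 bases, the GC box occurred in 32.7%, the TATA box in 12.4%, the TEAD core in 12.6% and the CArG box in 1.47%. TGANTCA (AP-1, in 6.75% of windows) and CAGCTG (an E-box, in 13.0%) matched none of the 250-base windows of Pdgfa, Pdgfc, Pdgfd and Pdgfra. These matches are descriptions of letters and not of factor binding.

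The receptor genes differed in how many accessible regions were named for them and in where those lay. By coordinates, gene bodies with 10 kb flanks held closer numbers, 5 for Pdgfrb and 4 for Pdgfra. Pdgfrb, which encodes PDGFR-beta, had 4 regions in the set. Its promoter region (chromosome 18, 61044851 to 61045285, centred 82 bases upstream of the start) had the highest level of the 28, at 6.15 on plastic and 6.14 on 32 kPa PDMS. Of all 64217 regions, 7.28% had a higher mean level. Pdgfrb also had 3 intronic regions, a kind of position where enhancers often lie. The region in intron 1, 13.4 kb into the gene, had 5.71 on plastic and 5.69 on 32 kPa PDMS. The region in intron 11, 26.9 kb into the gene, had 5.63 on plastic and 5.69 on 32 kPa PDMS. These levels differed by 0.06 or less between the surfaces. A weaker region in intron 1, 9.49 kb into the gene, had 4.15 on plastic and 4.35 on 32 kPa PDMS.

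Pdgfra, the gene of the receptor widely used to mark lung fibroblasts, had 2 weak regions. The promoter region of its transcript NM_001083316 (chromosome 5, 75155787 to 75155893) had 4.06 on plastic and 4.19 on 32 kPa PDMS. An intergenic region 2.16 kb upstream of another start had 4.19 on plastic and 3.77 on 32 kPa PDMS. Both mean levels, 4.13 and 4.0, were below the median of 4.20 over all regions. The RefSeq promoter window of that other start, NM_001347718, overlapped no region, and the nearest lay 1827 bases from it. A further region inside Pdgfra, in intron 17 of NM_001083316, was assigned to the microRNA gene Mir7025 and so was not counted. It had 3.89 on plastic and 4.09 on 32 kPa PDMS.

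The level sums reads over a region, and the receptor promoter regions were closer to each other per length. For Pdgfra this was the region of transcript NM_001083316, inside the RefSeq gene, since the window of the other start overlapped no region. The Pdgfrb promoter region was 435 bases wide and the Pdgfra promoter region 107. Per kb of region, the Pdgfra promoter had 7.28 on plastic and 7.41 on 32 kPa PDMS, and the Pdgfrb promoter 7.35 on plastic and 7.34 on 32 kPa PDMS, in log2 normalised reads per kb. Among 12568 promoter regions, the Pdgfra promoter lay at percentile 56.9 and the Pdgfrb promoter at 56.8 on that scale. On the deposited scale the Pdgfra promoter lay at percentile 17.6 and the Pdgfrb promoter at 76.0.

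Of the ligand genes, Pdgfa had the most regions named for it within 100 kb, 11, and Pdgfc 6, while Pdgfd had 3 and Pdgfb 2. By coordinates the order differed, with 12 regions inside Pdgfd, 5 inside Pdgfa, 3 inside Pdgfc and 1 inside Pdgfb. Most of those inside Pdgfd were named for Ddi1, a gene nested in it. Pdgfa, the ligand for PDGFR-alpha, was accessible at its promoter (chromosome 5, 138994809 to 138995113), with 5.41 on plastic and 5.46 on 32 kPa PDMS. Its highest level was in intron 4 of NR_156469, 14.2 kb into the gene, with 5.97 on plastic and 6.03 on 32 kPa PDMS. A region 20.3 kb upstream had 5.4 on plastic and 5.59 on 32 kPa PDMS. These were the stronger Pdgfa regions, and each differed between the surfaces by less than 0.2. A CpG-island region 1.09 kb upstream had 5.19 on plastic and 5.20 on 32 kPa PDMS, and a second one, 2.71 kb upstream, had 3.96 on plastic and 4.41 on 32 kPa PDMS. Both lie upstream of the annotated start but within the longer span that RefSeq gives the gene, to 139000792 on the minus strand. The one 1.09 kb upstream had the highest mean level per kb of the 28, 7.71, with 7.71 on plastic and 7.72 on 32 kPa PDMS. The intron 4 region was next by mean, 7.70, with 7.67 on plastic and 7.73 on 32 kPa PDMS, the highest single level per kb of the 28 on 32 kPa. The other 6 Pdgfa regions had mean levels of 3.64 to 4.48.

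Pdgfc, which encodes a latent ligand for PDGFR-alpha, had its accessible chromatin mainly upstream of the gene. An intergenic region 18.5 kb upstream (chromosome 3, 81017707 to 81018129) had 5.84 on plastic and 5.82 on 32 kPa PDMS. Regions 5.92 and 4.15 kb upstream had 5.42 and 5.13 on plastic, against 5.12 and 4.79 on 32 kPa PDMS. In intron 1, 22.4 kb into the gene, the level was 5.50 on plastic and 5.58 on 32 kPa PDMS. No region was annotated as a Pdgfc promoter. The region in the 5′ UTR of exon 1 had 4.10 on plastic and 4.03 on 32 kPa PDMS, lower than 4 of the other 5 Pdgfc regions. The remaining one, 59.8 kb upstream at a SINE repeat, had 3.93 on plastic and 3.37 on 32 kPa PDMS.

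Among the regions named for Pdgfd, the gene of a latent ligand for PDGFR-beta, 1 was stronger, at its promoter (chromosome 9, 6168395 to 6168713). It had 5.73 on plastic and 5.54 on 32 kPa PDMS. The 2 others, 3.23 kb upstream and 2.76 kb into the gene, had 3.44 and 3.89 on plastic, against 3.43 and 3.88 on 32 kPa PDMS. A region inside Pdgfd but named for Ddi1, and so not counted, was stronger than the promoter, with 6.32 on plastic and 6.37 on 32 kPa PDMS. Pdgfb, which endothelial cells and platelets are known to produce, had no region annotated as a promoter. Its 2 regions were intergenic in the authors' annotation, which places them upstream of the start it used. The region 22.9 kb upstream (chromosome 15, 80037745 to 80037928) had 3.90 on plastic and 4.44 on 32 kPa PDMS. The region 9.53 kb upstream (80024444 to 80024563) had 4.05 on plastic and 3.76 on 32 kPa PDMS. This nearer region lies just inside the longer span that RefSeq gives the gene, close to its first start on the minus strand, at 80024614. The distal one was thus lower on plastic than on 32 kPa PDMS and the nearer one higher.

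**Figure D1:**
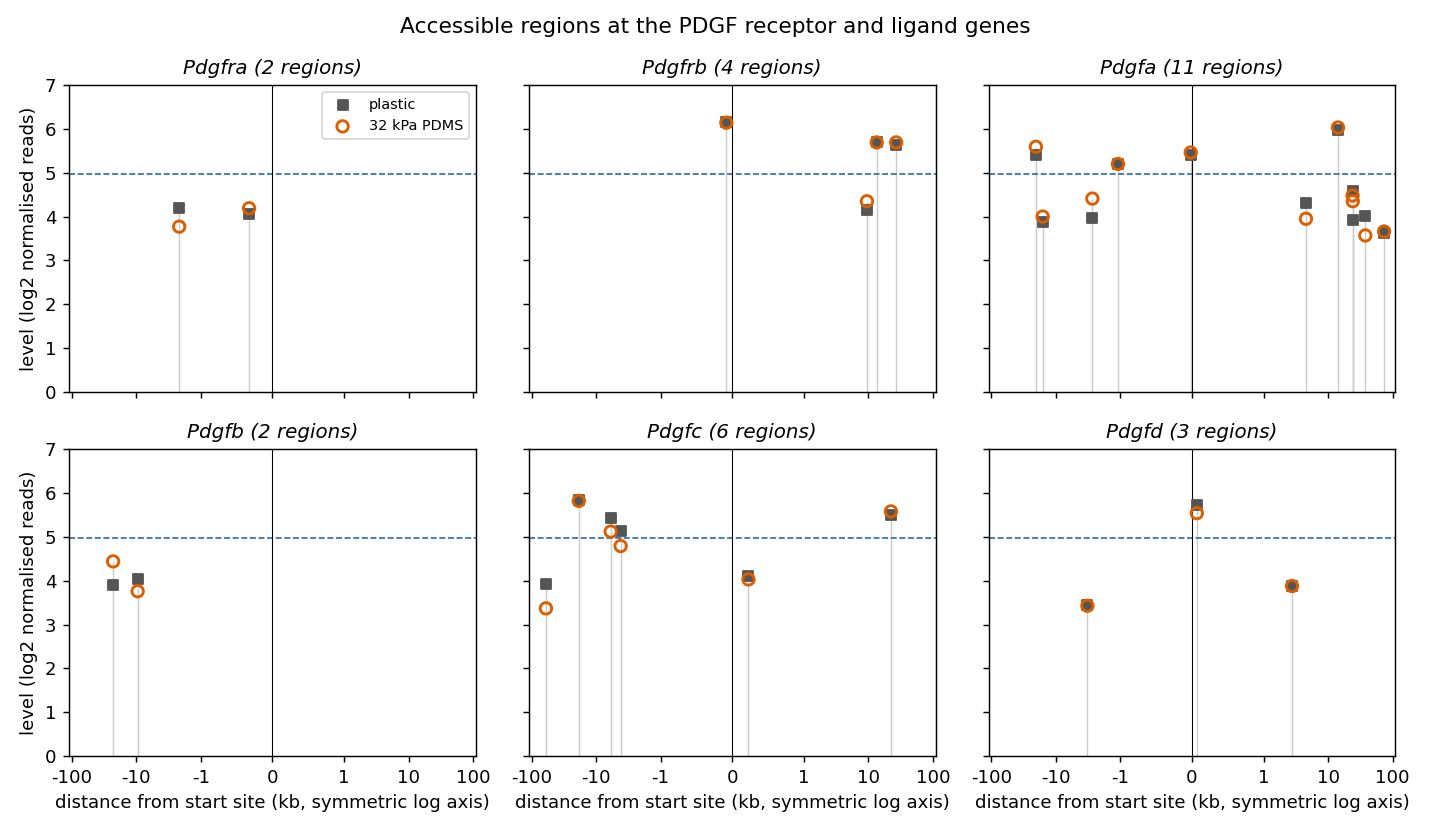
Level of each PDGF region (log2 normalised reads, authors' means of 2 libraries) against its distance from the annotated start in kb on a symmetric log axis, with filled squares for plastic, open circles for 32 kPa PDMS and a dashed line at 4.97, the lowest level on 32 kPa among regions listed as higher there than on 0.2 kPa. Pdgfrb, Pdgfa and Pdgfd have a region above the line at the start site, Pdgfc has its stronger regions away from it, and those of Pdgfra and Pdgfb lie below the line.

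Ordered by the strongest region named for each gene within 100 kb, the mean level was 6.15 at Pdgfrb, 6.0 at Pdgfa and 5.83 at Pdgfc. It was 5.64 at Pdgfd, 4.20 at Pdgfb and 4.13 at Pdgfra. The region inside Pdgfd named for Ddi1, with a mean level of 6.35 (8.31 per kb), was not ranked. Neighbours in this order cannot be told apart beyond replicate error, since no spread between libraries is known. Per kb the order was Pdgfa (7.71), Pdgfrb (7.48), Pdgfc (7.44), Pdgfra (7.35), Pdgfd (7.29) and Pdgfb (6.97). Pdgfb and Pdgfra were thus last on the deposited scale, and Pdgfb alone remained last per kb. The 28 regions had a median mean level of 4.24 (range 3.43 to 6.15), against 4.20 over all regions, and a median per kb of 7.10, against 6.76. By position, 16 (57.1%) were intergenic, 7 (25%) intronic, 4 (14.3%) at promoters and 1 (3.57%) in a 5′ UTR. Over all regions these shares were 38.3%, 37.2%, 19.6% and 1.03%.

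**Figure D2:**
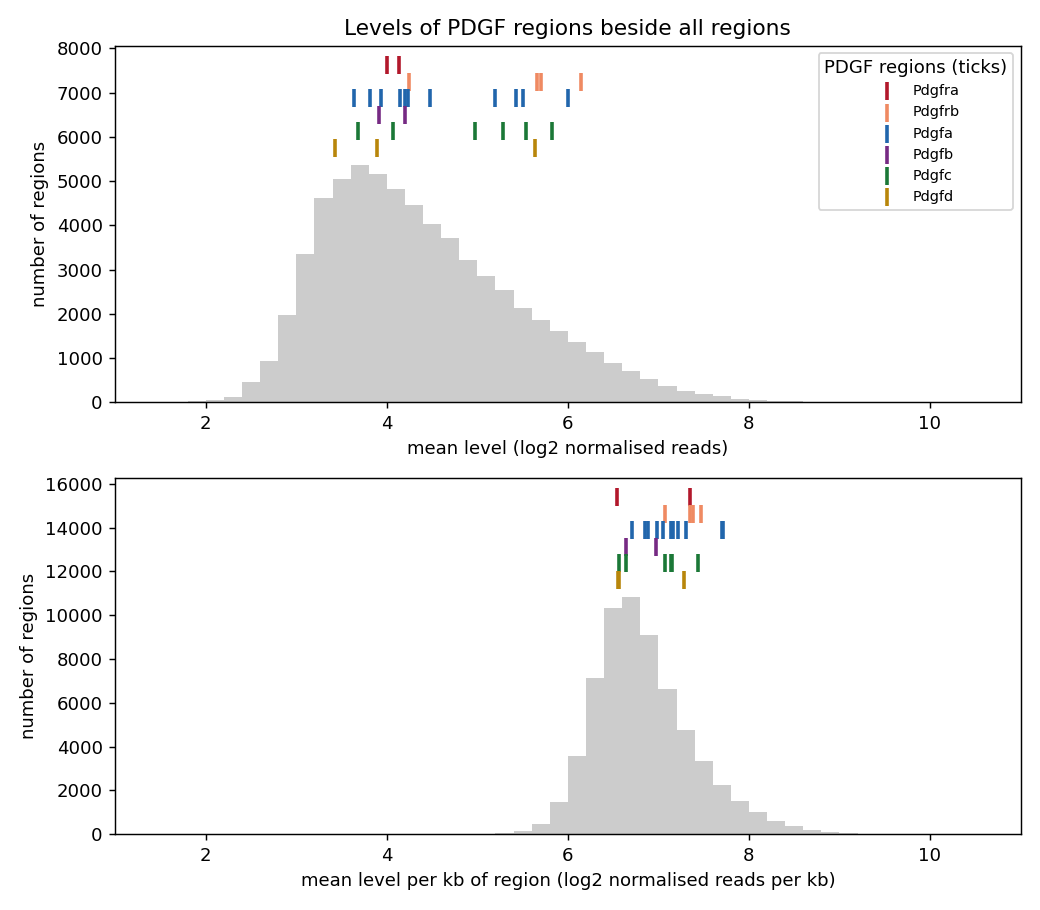
Distribution of the mean level over plastic and 32 kPa PDMS for all 64217 regions (grey bars), as deposited above and per kb of region below, with coloured ticks for the regions of each PDGF gene. The 2 Pdgfra and 2 Pdgfb ticks sit at or left of 4.20 on the deposited scale, while per kb the Pdgfra promoter (7.35) lies among those of Pdgfrb.

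No PDGF region passed the authors' test between plastic and 32 kPa PDMS. In the authors' deposited table, made with DiffBind, the FDR was 1 at each of the 28, as at all 64217 regions (0.00% called at an FDR of 0.05). At an unadjusted p of 0.05, 0 of the 28 were called, against 370 of all regions (0.576%), per the authors' deposited table. None reached an absolute log2 fold of 1 in the authors' deposited table, which 4.68% of all regions did. A share near such backgrounds is not a result about these genes. With 2 libraries a culture, an FDR of 1 does not show that the surfaces act alike.

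The direction of the small differences was mixed. By the authors' deposited table, there were 15 regions higher on plastic and 13 on 32 kPa PDMS, with a median log2 fold of 0.01, against 0.05 over all regions. The share higher on plastic was thus 53.6%, against 55.0% over all regions. The largest were 0.56 at the repeat upstream of Pdgfc (p = 0.413) and -0.56 at an intergenic region 23.9 kb downstream of the Pdgfa start (p = 0.302), by DiffBind in the authors' deposited table. An adjacent region, 24.1 kb downstream, went the other way, with a fold of 0.24 in the authors' deposited table. At the other genes the largest in the authors' deposited table were -0.54 at the distal Pdgfb region (p = 0.337, DiffBind), 0.42 at the upstream Pdgfra region (p = 0.474), -0.20 at the weaker intron 1 region of Pdgfrb (p = 0.694) and 0.18 at the Pdgfd promoter (p = 0.627). By the authors' deposited table, 5 of 6 Pdgfc regions were higher on plastic, by up to 0.56, and so were 3 of 3 Pdgfd regions, by 0.01 to 0.18. Pdgfa, with the most regions, had 3 higher on plastic and 8 on 32 kPa PDMS, and Pdgfra, Pdgfrb and Pdgfb had as many one way as the other. These counts are descriptions and were not tested against the share over all regions.

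These differences were larger at weaker regions. The 11 PDGF regions with a mean level of at least 5 had a median absolute fold of 0.06 and a maximum of 0.30, in the authors' deposited table. The 17 weaker ones had a median of 0.29 and a maximum of 0.56 in the authors' deposited table. Over all regions the medians were 0.15 and 0.32, and the 95th percentiles 0.48 and 1.07, on the same split. The largest folds at Pdgfc (0.56), Pdgfa (-0.56), Pdgfb (-0.54) and Pdgfra (0.42) were at regions with mean levels of 3.68, 4.23, 4.20 and 4.0. Whether the level accounts for them was not tested.

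**Figure D3:**
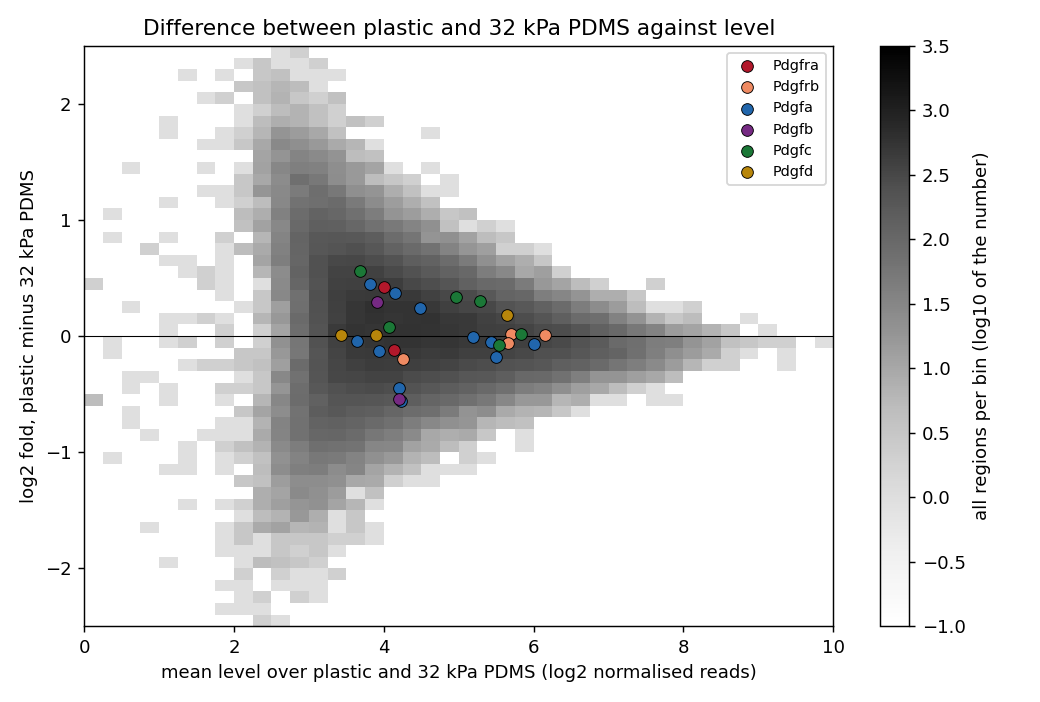
Log2 fold (plastic minus 32 kPa PDMS) against the mean level over both surfaces, for all regions (grey, number per bin on a log scale) and for the 28 PDGF regions (coloured by gene). The PDGF regions lie between -0.56 and 0.56, inside the grey cloud, and narrow towards 0 at levels of 5 and above.

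Against 0.2 kPa PDMS, no PDGF region was listed as more accessible on a stiffer surface. The authors' deposited tables hold only regions with a log2 fold of at least 1 and an FDR of at most 0.05, all higher on the stiffer surface, so smaller or opposite changes at PDGF genes were not analysed here. The level of these regions on 0.2 kPa PDMS is likewise not given in the tables used here. On plastic, 12 PDGF regions reached 4.94, the lowest listed level, and 0 of the 12 were listed, against 11.7% of all regions at that level. On 32 kPa PDMS, 11 reached the lowest listed level of 4.97 and 0 were listed, against 12.5% of all regions at that level. The remaining PDGF regions, among them those of Pdgfra and Pdgfb, were weaker than any listed region. Without the condition on level the listed shares were 3.30% for plastic and 3.31% for 32 kPa. With so few regions, counts of 0 beside these shares are not a result about the PDGF genes.

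The nearest listed regions lay outside the loci. From the ends of the RefSeq gene, the nearest region listed for plastic was 346.4 kb from Pdgfra (assigned to Kit), 572.8 kb from Pdgfrb (Carmn), 281.6 kb from Pdgfa (Fam20c), 239.6 kb from Pdgfb (Rps19bp1), 860.6 kb from Pdgfc (Gucy1b1) and 1409.5 kb from Pdgfd (Yap1). For 32 kPa it was 106.6 kb from Pdgfra (Chic2), 153.3 kb from Pdgfrb (Arsi), 281.6 kb from Pdgfa (Fam20c) and 305.0 kb from Pdgfb (Gtpbp1). It was 1468.1 kb from Pdgfc and 6963.4 kb from Pdgfd. Kit encodes the receptor tyrosine kinase whose gene neighbours Pdgfra and arose from the same ancestor. In the authors' deposited table its region, 30.1 kb upstream of the start, had 6.92 on plastic and 5.63 on 0.2 kPa PDMS (fold 1.29, DiffBind FDR = 0.000104).

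Some genes that act around the PDGF receptors, or belong to related receptor families, were listed against 0.2 kPa PDMS. The 4 lists held 61 measured genes, of which 11 were VEGF-family and related receptor genes. Of the 61, 7 (11.5%) had a region within 100 kb listed for plastic, against 9.31% of 17919 genes. For 32 kPa, 7 (11.5%) had one, against 9.94%. At an FDR of 0.01 the counts were 3 for plastic (4.92%, against 3.35% of all genes) and 4 for 32 kPa (6.56%, against 3.57%). Within 10 kb of the start they were 5 of 58 for plastic (8.62%, against 7.11% of 14999 genes) and 3 of 58 for 32 kPa (5.17%, against 8.25%). The shares lay above the background in some settings and below it in another, and the differences were not tested. Both comparisons share the 0.2 kPa libraries, and 2 genes, Sparc and Ptpn12, were in both. All listed regions were higher on the stiffer surface, and the sources used here do not say whether regions lower there were left out. None of the regions of these lists differed between plastic and 32 kPa PDMS at an FDR of 0.05. The same held for all 64217 regions (0.00% called), so this is not a result about these genes.

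Of 13 genes that activate, sequester or bind PDGFs, 2 were listed for plastic and 1 for 32 kPa, beside 9.31% and 9.94% of all genes. Sparc, a matricellular protein that binds PDGF-B, had 3 listed regions on plastic. The authors' deposited table gave the strongest, in its 5′ UTR, 6.27 on plastic and 5.12 on 0.2 kPa PDMS (fold 1.14, DiffBind FDR = 0.0048). For the co-receptor gene Nrp1, the authors' deposited table gave a region 1.78 kb upstream 5.97 on plastic and 4.96 on 0.2 kPa PDMS (fold 1.02, DiffBind FDR = 0.0216). Plat and Plau, the plasminogen activators known to activate PDGF-C and PDGF-D, had no listed region.

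Among 24 genes of receptor-proximal signalling, 2 were listed on each stiffer surface, beside 9.31% of all genes for plastic and 9.94% for 32 kPa. For plastic these were Sos1, a RAS exchange factor, and Mapk3, which encodes ERK1. In the authors' deposited table a region 9.88 kb upstream of Sos1 had 5.73 on plastic and 4.65 on 0.2 kPa PDMS (fold 1.08, DiffBind FDR = 0.0231). A nearer Sos1 region, 2.62 kb upstream, had 5.48 on plastic and 4.42 on 0.2 kPa PDMS (fold 1.07, DiffBind FDR = 0.0461) in the authors' deposited table. By the authors' deposited table, Mapk3 had 5.37 on plastic and 4.28 on 0.2 kPa PDMS in intron 1 (fold 1.09, DiffBind FDR = 0.0471). For 32 kPa these were the docking protein gene Gab1 and the kinase gene Jak1, which the authors' deposited table gave folds of 1.02 and 1.08 (DiffBind FDR = 0.0107 and 0.04).

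Of 13 negative regulators of receptor signalling, 1 was listed for plastic and 4 for 32 kPa, beside 9.31% and 9.94% of all genes. Neither the difference between these counts nor that from the shares over all genes was tested. Ptpn12, a tyrosine phosphatase gene, was listed at its promoter, with 7.50 on plastic and 6.48 on 0.2 kPa PDMS (fold 1.02, DiffBind FDR = 0.000136) in the authors' deposited table. In the other comparison it had 7.65 on 32 kPa PDMS and 6.47 on 0.2 kPa PDMS (fold 1.18, DiffBind FDR = 0.000892) in the authors' deposited table. The promoter of Spry2, an inhibitor of RAS and MAP kinase signalling, had 7.56 on 32 kPa PDMS and 6.51 on 0.2 kPa PDMS (fold 1.06, DiffBind FDR = 0.00154) in the authors' deposited table. Regions 21.5 kb upstream of the phosphatase gene Ptpn2 and 33.8 kb upstream of Spry4 were listed for 32 kPa in the authors' deposited table, with folds of 1.22 and 1.34 (DiffBind FDR = 0.00601 and 0.0236). Of 11 measured VEGF-family and related receptor genes, Kit and Kdr were listed for plastic, and 0 for 32 kPa, beside the same shares of all genes. At a region 12.0 kb upstream of Kdr, the authors' deposited table gave 5.98 on plastic and 4.93 on 0.2 kPa PDMS (fold 1.04, DiffBind FDR = 0.0167). Kdr is also an endothelial marker, and markers of other cell types were listed beside these genes. For plastic, 2 of 6 measured endothelial markers were listed (Kdr and Emcn), 2 of 5 epithelial (Hopx and Krt8), 2 of 4 mesothelial (Wt1 and Krt19), 1 of 7 pericyte and smooth muscle (Myh11), 0 of 6 leukocyte and platelet and 2 of 10 lung fibroblast markers (Col1a1 and Col1a2). For 32 kPa these counts were 0 endothelial, 1 epithelial (Hopx), 2 mesothelial (Wt1 and Upk3b), 0 pericyte and smooth muscle, 0 leukocyte and platelet and 3 lung fibroblast markers (Col1a2, Twist1 and Thy1). Over all genes with a region within 100 kb, 9.31% were listed for plastic and 9.94% for 32 kPa. With so few markers per cell type, these counts are not a result about a cell type. The part of such cell types in the listing of the genes above was not tested.

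The PDGF promoter levels were common ones. By Euclidean distance between levels per kb on plastic and 32 kPa PDMS, the nearest of 11846 other coding-gene promoter regions were those of Stn1, Tomm70a and Arl3 for Pdgfra, Fam102a, Scamp2 and Mtx1 for Pdgfrb, Zfp12, E130308A19Rik and Wac for Pdgfa, and Foxc1, Pomgnt1 and Myh11 for Pdgfd. These distances were 0.0142 or less. Between 235 and 335 promoter regions lay within 0.1 of each PDGF promoter, so a likeness over 2 levels singles out no gene.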

How the data were processed

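Samples were grouped by the culture in their titles: plastic, 32 kPa PDMS and 0.2 kPa PDMS, 2 libraries each, read to 51 bp from both ends. Per the submitters' processing notes, the build was mm10 and the tools included DiffBind, MACS2, Picard and BWA, without versions or settings. Read shifting, peak merging and scaling are not given in the sources used here. Per the file headers, the deposited levels are log2 mean normalised reads per culture, the deposited fold is their log2 difference, and the p-values and FDRs are the authors' own. The annotation is HOMER's, per the file headers, so a region named for a gene may act on another. Depth per library is unknown, and the tables used here hold culture means, so no test was refitted and no interval can be given.

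The 0.2 kPa tables call their sides Control and Treat. Control equalled the named 32 kPa level at 643 of 643 shared intervals, and exceeded the named plastic level by 0.01 to 0.02 at 653, and was read as the stiffer surface. In the table of plastic against 32 kPa a fold is plastic minus 32 kPa. The 1 repeated header row was dropped. Levels per kb are the level minus log2 of the width in kb. A listed region was counted where it overlapped by at least 1 bp. The members and lists were chosen with earlier results of these data known. Named were the 6 genes with their promoter, strongest and most different regions, list genes with a listed region, and the 3 nearest promoters by level per kb. Overlap counting was tested on simulated data. Promoter windows running from 250 bases before a start were searched, and none starting within 1 kb after an earlier start is printed. Python 3.11.15, pandas 2.3.3, numpy 2.4.6 and matplotlib 3.10.9 were used.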

Additional observations from a re-analysis of the deposited data

How the results depend on the processing

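The count of 0 PDGF regions listed against 0.2 kPa stayed 0 with no distance limit, beside 3.30% of all regions for plastic and 3.31% for 32 kPa. It also stayed 0 over gene bodies and 10 kb flanks by coordinates, an alternative added after seeing the data. A limit of 10 kb from the start or an FDR of 0.01 only narrows a count of 0, so neither could change it. For plastic against 32 kPa, none of all 64217 regions was called at an FDR of 0.05. The settings based on the FDR could therefore only give 0. At an unadjusted p of 0.05 and at an absolute log2 fold of 1 the PDGF count was also 0, beside 0.576% and 4.68% of all regions. The number of PDGF regions was 15 within 10 kb, 33 with no limit, 28 at a level of at least 3 and 38 by coordinates. No PDGF region overlapped a listed one by 1 bp, so none could match at 50% or 90%. Levels per kb changed the rank of the strongest region at 5 of the 6 loci. Genes of the 4 lists that were listed for plastic, 7 in the main setting, were 5 within 10 kb and 3 at an FDR of 0.01. The shares of all genes were 7.11% and 3.35%. For 32 kPa, also 7, they were 3 and 4, beside 8.25% and 3.57%. No paired analysis was possible because the tables used here hold culture means. For the same reason replicates were not left out.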

Other observations

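Accessible chromatin inside the Pdgfd gene was assigned mostly to Ddi1, a gene nested in it. By coordinates, the RefSeq gene spans 365.9 kb and holds 12 regions, 10 of them under the name Ddi1. The strongest, on chromosome 9 (6454614 to 6454870), had 6.32 on plastic and 6.37 on 32 kPa PDMS, above the Pdgfd promoter. The other 9 had mean levels of 2.83 to 4.22, and their folds in the authors' deposited table ran from -1.14 to 0.91, with an FDR of 1 at each.

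Beyond 100 kb, 4 regions named for Pdgfc and 1 for Pdgfd were left out of the set. An intergenic region 290.6 kb from the Pdgfc start (chromosome 3, 81326908 to 81327084) had 4.40 on plastic and 2.55 on 32 kPa PDMS. Its fold of 1.84 in the authors' deposited table had a DiffBind p of 0.0119 and an FDR of 1. The region 326.4 kb upstream of Pdgfd had 4.58 on plastic and 3.65 on 32 kPa PDMS, with a fold of 0.93 in the authors' deposited table.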
